A study of Rattus norvegicus with 17 samples.

Results

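Proteasome genes were described here in rat gastrocnemius muscle across 3 groups. They are the 50 protein-coding entries, of 32495 named entries in the deposited count table, whose symbol begins with Psma, Psmb, Psmc, Psmd, Psme, Psmf or Psmg followed by a digit. By role they comprise 8 alpha-ring and 7 beta-ring subunits of the core particle, 4 immunoproteasome and thymoproteasome beta subunits, 6 base ATPases, 3 other base subunits, 8 lid subunits, 7 assembly chaperones, and 5 activators and inhibitors. The other 2, Psmc3ip and Psme3ip1, match by name but are not subunits: the protein of Psmc3ip acts in meiotic recombination, and that of Psme3ip1 binds the activator Psme3. Enough counts for testing were present for 48 members. The remaining 2 had 2 counts each, in 1 sample: Psma8, an alpha subunit known from testis, and Psmb11, the thymus beta subunit.

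The groups were tumor-bearing rats given chemotherapy (6 samples, from 7 libraries), tumor-bearing rats given no chemotherapy (5 samples) and healthy rats without a tumor (5 samples). Every rat was on the control diet. The labels name neither the tumor nor the chemotherapy agent, and give no strain, sex or age. Stranded libraries were made from total RNA after ribosomal RNA had been removed. No label says which libraries came from separate animals, so the p-values measure the spread between these samples, which may in part be technical.

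The proteasome degrades proteins that carry ubiquitin chains. Its core particle is a barrel of 2 outer alpha rings, which form the gate, and 2 inner beta rings, in which Psmb5, Psmb6 and Psmb7 hold the cutting sites. The regulatory particle caps the barrel: the lid removes ubiquitin, and the base unfolds the substrate with its ring of ATPases. In muscle the ubiquitin-proteasome system is known for the breakdown of myofibrillar proteins during wasting, when transcripts of proteasome subunits rise in many rodent models. Interferon gamma induces Psmb8, Psmb9 and Psmb10, which take the places of Psmb5, Psmb6 and Psmb7 and give the immunoproteasome.

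Levels below are CPM values, which are counts scaled to a common library size with a trimmed-mean (TMM) factor; transcript lengths were not used, so levels of different genes are not compared. Deposited libraries held between 3023899 and 15777909 counts. Libraries 11 and 12 of the chemotherapy group were the most alike of all pairs (chi-square over its degrees of freedom 2.03, and 5.03 for the next pair, where counting noise alone gives about 1) and were summed into 1 sample. Healthy libraries 1, 3 and 4 had the lowest scores on the first principal component (48.4% of the variance), at -27.7, -33.0 and -42.0. Tumor libraries 8 and 10 lay at -19.8 and -13.8, and healthy libraries 2 and 5 at 10.4 and -7.18. Entries with no gene name held 0.279%, 0.247% and 0.373% of the counts in libraries 1, 3 and 4, against 0.102% to 0.272% in the others. Among counts of 1 to 10, even numbers made up 52.3%, 56.5% and 59.5% in those 3 libraries, against 45.9% to 53.2% in the others. The part of these traits in the results was not tested. A suffix on the alignment names, of unknown meaning, was MB for healthy libraries 1 to 4 and for libraries 11 and 12, and VM for every other library. The summed CPM of 6 muscle fiber markers was 153877 to 195849 in chemotherapy, 156278 to 228340 in tumor and 197099 to 298287 in healthy muscle, and 3 of the 6 were called lower in chemotherapy against healthy muscle. Summed markers of endothelium (4 genes, 1 called lower) were 121 to 188 CPM in chemotherapy, 148 to 236 in tumor and 190 to 223 in healthy muscle, and those of pericytes and smooth muscle (5 genes, 3 called lower) were 163 to 245 CPM in chemotherapy, 241 to 371 in tumor and 284 to 330 in healthy muscle. Fibroblast markers (5 genes, 2 called lower) summed to 2222 to 10789 CPM in chemotherapy, 2778 to 12980 in tumor and 4524 to 14211 in healthy muscle. Red blood cell markers (5 genes) summed to 124 to 917 CPM in chemotherapy, 227 to 588 in tumor and 440 to 1379 in healthy muscle. None of these 5 was called, and all had negative fold changes in both comparisons with healthy muscle. In chemotherapy against healthy muscle, 6.41% of the 11856 genes tested were called lower. The marker calls were also lost in the settings, given below, that left no gene called. The part of these shifts in the results was not tested. In bulk muscle, fewer cells of a type and less RNA per cell cannot be told apart.

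The first question was how proteasome transcripts in muscle of chemotherapy-treated tumor-bearing rats differed from those in healthy muscle. In chemotherapy muscle 3 members rose (Psma3l, Psma4 and Psmc6) and 4 fell (Psmb5, Psmb6, Psmc3 and Psmd2), while 41 did not pass the test (edgeR quasi-likelihood test, Benjamini-Hochberg adjusted p below 0.05 over 11856 genes). The 7 called members are 14.6% of the 48 tested, and the same call was made for 13.7% of the 11856 genes, 7.3% being higher and 6.41% lower. The share of proteasome genes called was therefore near that of genes in general, and the calls went in both directions. Log2 fold changes were positive for 26 members and negative for 22, with a median of 0.03, against -0.02 over all genes tested. The median size of the change, regardless of sign, was 0.24 for the members and 0.35 for all genes.

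Which libraries entered the fit decided calls across the whole table, the 7 members included. No gene at all was called without healthy libraries 1, 3 and 4, nor when any 1 of these 3 or of chemotherapy libraries 13, 14 and 15 was left out, nor among the VM libraries alone, nor with the suffix or 1 surrogate variable in the model. Without chemotherapy library 16 only Psmc6 was called among the members, and 529 of 11811 genes were. Without healthy library 2 the calls numbered 16 of 48 members (7 higher, 9 lower), beside 3799 of 11995 genes (2024 higher, 1775 lower). Scaling by total counts moved the median of all genes to 0.12 and called 4 members higher, Psma3l, Psma4 and Psmc6 among them, and 0 lower, beside 1669 genes higher and 348 lower.

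**Figure D1:**
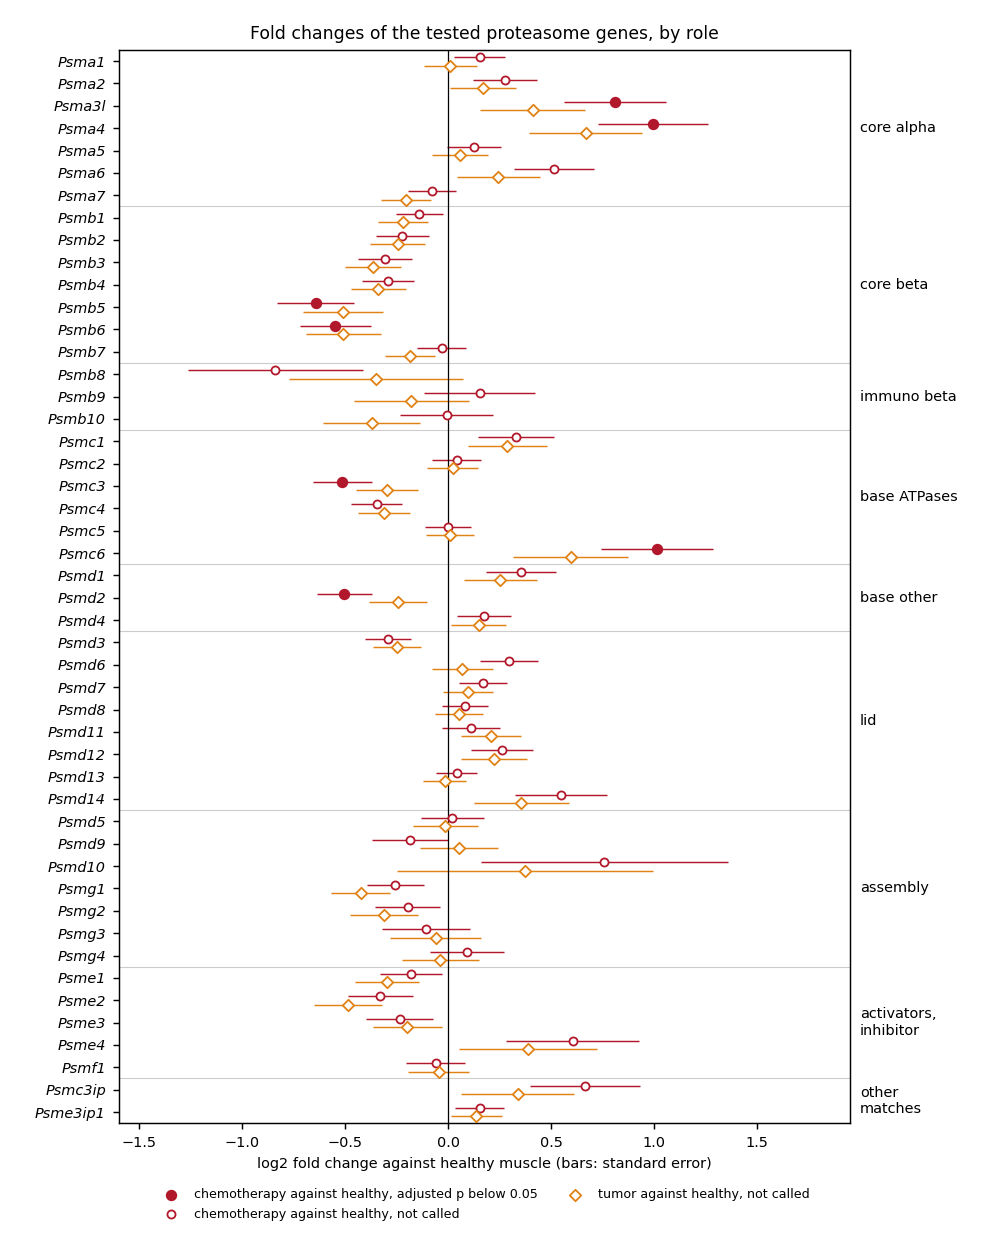
Log2 fold changes (x axis, bars give the standard error) of the 48 tested proteasome genes, grouped by role down the page, for chemotherapy (circles) and tumor (diamonds) against healthy muscle. Filled circles are the 7 called genes. The 7 beta-ring genes lie left of 0 in chemotherapy against healthy muscle, and 6 of the 7 tested alpha-ring genes lie right of it.

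Transcripts of the alpha and beta rings, whose proteins are built into the same core particle in equal numbers, had fold changes of opposite sign in chemotherapy against healthy muscle. Of 7 tested alpha genes, 6 were positive and 1 negative (median log2 fold change 0.28, from -0.08 to 0.997), and 2 were called higher. Of 7 beta genes none was positive (median -0.29, from -0.64 to -0.03), and 2 were called lower. The split depended on the fit: without healthy libraries 1, 3 and 4 it was 7 positive to 0 negative for alpha and 3 to 4 for beta. With 1 surrogate variable it was 2 to 5 for alpha and 1 to 6 for beta, and with scaling by total counts 7 to 0 for alpha and 2 to 5 for beta.

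Psma4 and Psma3l are the alpha genes with the smallest p, and Psmb5 and Psmb6, which encode the chymotrypsin-like and caspase-like cutting sites, are the beta genes with the smallest p. The entry Psma3l corresponds to the RefSeq gene Psma3, under which it is listed as a synonym. The promoters of these 4 genes (RefSeq, GRCr8) are shown because the genes were called in opposite directions; each runs 5′ to 3′ on the gene's strand from 250 bases before the start to 50 after it. Capitals mark TGACNNNGC, the core of the antioxidant response element bound by Nfe2l1 and Nfe2l2 with small Maf proteins, and CCAAT, the box bound by NF-Y, each searched on both strands; no matches of the 2 motifs overlapped. The intervals are chr6:95219499-95219798 (+ strand) for Psma3l, chr8:64236270-64236569 (+ strand) for Psma4, chr15:32047330-32047629 (- strand) for Psmb5 and chr10:55737638-55737937 (+ strand) for Psmb6.
Psma3l: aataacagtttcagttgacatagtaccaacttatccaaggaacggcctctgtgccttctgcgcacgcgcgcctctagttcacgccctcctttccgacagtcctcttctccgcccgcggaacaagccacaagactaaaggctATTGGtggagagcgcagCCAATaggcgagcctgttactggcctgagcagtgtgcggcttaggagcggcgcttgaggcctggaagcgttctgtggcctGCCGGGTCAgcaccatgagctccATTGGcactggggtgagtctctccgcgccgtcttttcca
Psma4: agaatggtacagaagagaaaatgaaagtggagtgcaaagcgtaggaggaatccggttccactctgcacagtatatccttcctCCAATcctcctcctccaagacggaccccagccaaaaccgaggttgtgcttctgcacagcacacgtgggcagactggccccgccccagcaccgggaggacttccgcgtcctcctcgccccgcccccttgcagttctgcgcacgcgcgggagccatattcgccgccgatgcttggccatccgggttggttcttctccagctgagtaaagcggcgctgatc
Psmb5: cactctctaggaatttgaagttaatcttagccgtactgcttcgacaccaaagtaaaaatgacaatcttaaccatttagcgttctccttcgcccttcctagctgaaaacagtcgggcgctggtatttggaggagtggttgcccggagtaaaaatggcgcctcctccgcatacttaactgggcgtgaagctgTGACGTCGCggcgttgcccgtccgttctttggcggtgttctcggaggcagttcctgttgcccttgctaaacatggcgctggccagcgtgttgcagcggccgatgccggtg
Psmb6: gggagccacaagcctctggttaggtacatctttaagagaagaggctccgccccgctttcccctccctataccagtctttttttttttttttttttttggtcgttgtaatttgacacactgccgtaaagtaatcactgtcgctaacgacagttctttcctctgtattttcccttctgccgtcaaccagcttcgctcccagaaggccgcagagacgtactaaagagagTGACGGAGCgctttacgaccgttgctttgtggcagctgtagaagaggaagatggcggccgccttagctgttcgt
TGACNNNGC begins 60 bases before the start in Psmb5, 24 before it in Psmb6 and, on the other strand, 12 before it in Psma3l. The window of Psma4 holds no TGACNNNGC, but a CCAAT 168 bases before the start. Of 45 members with a promoter in the table, 8 (17.8%) held TGACNNNGC, against 12.1% of 33469 promoters of the same length, and 23 (51.1%) held CCAAT, against 37.5%. Another motif that was searched, the interferon-type pair of GAAA with 2 bases between, was present in 7 of 45 (15.6%), against 3.92%. These 7 were Psma4, Psmb3, Psmb8, Psmb10, Psmd7, Psme2 and Psmg4. This motif is not capitalized above. TGACNNNGC was present in a gene called higher and in genes called lower, and a match describes letters, not binding.

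Psma4 had 57.6, 95.4 and 111 CPM (lowest, median, highest) in chemotherapy muscle, 90.1, 71.9, 47.8, 98.1 and 48.4 CPM in tumor libraries 6 to 10, and 33.2, 73.6, 37.4, 24.0 and 57.6 CPM in healthy libraries 1 to 5. Healthy library 2 lay inside the chemotherapy range and library 5 at its lower edge, while libraries 1, 3 and 4 lay well below it. The log2 fold change was 0.997 ± 0.27 (SE) in chemotherapy against healthy muscle (edgeR adjusted p = 0.0308), and 0.45 without healthy libraries 1, 3 and 4 (adjusted p = 0.899).

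Psma3l, which encodes another gate subunit, had 70.5, 93.2 and 126 CPM (lowest, median, highest) in chemotherapy, 90.1, 82.2, 42.4, 86.9 and 58.8 in tumor and 48.7, 82.1, 43.0, 28.3 and 70.6 in healthy libraries. The same 3 healthy libraries lay below every chemotherapy sample, and the other two did not. It rose by 0.81 ± 0.25 on the log2 scale in chemotherapy against healthy muscle (edgeR adjusted p = 0.0403), and its fold change was 0.32 without those 3 libraries. Among the other alpha genes the fold changes were 0.15 for Psma1, 0.28 for Psma2, 0.13 for Psma5, 0.52 for Psma6 (adjusted p = 0.0685) and -0.08 for Psma7.

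Psmb5 had 56.7, 65.6 and 78.4 CPM (lowest, median, highest) in chemotherapy, 57.0, 59.0, 85.4, 75.1 and 89.4 in tumor and 107, 60.7, 105, 153 and 92.7 in healthy libraries. Healthy library 2 lay within the chemotherapy range, and the other 4 healthy libraries lay above it. The fold change was -0.64 ± 0.19 (SE) in chemotherapy against healthy muscle (edgeR adjusted p = 0.0355), and -0.21 without healthy libraries 1, 3 and 4.

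Psmb6 had 99.1, 113 and 127 CPM (lowest, median, highest) in chemotherapy, 104, 94.4, 125, 121 and 141 in tumor and 178, 105, 207, 219 and 123 in healthy libraries. Libraries 1, 3 and 4 lay far above every chemotherapy sample, and healthy libraries 2 and 5 lay among them. It fell by 0.55 ± 0.17 on the log2 scale in chemotherapy against healthy muscle (edgeR adjusted p = 0.0435), and without those 3 libraries the log2 fold change was 0.0010. The other beta genes had fold changes of -0.14 (Psmb1), -0.22 (Psmb2), -0.31 (Psmb3), -0.29 (Psmb4) and -0.03 (Psmb7), the last being the trypsin-like site.

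**Figure D2:**
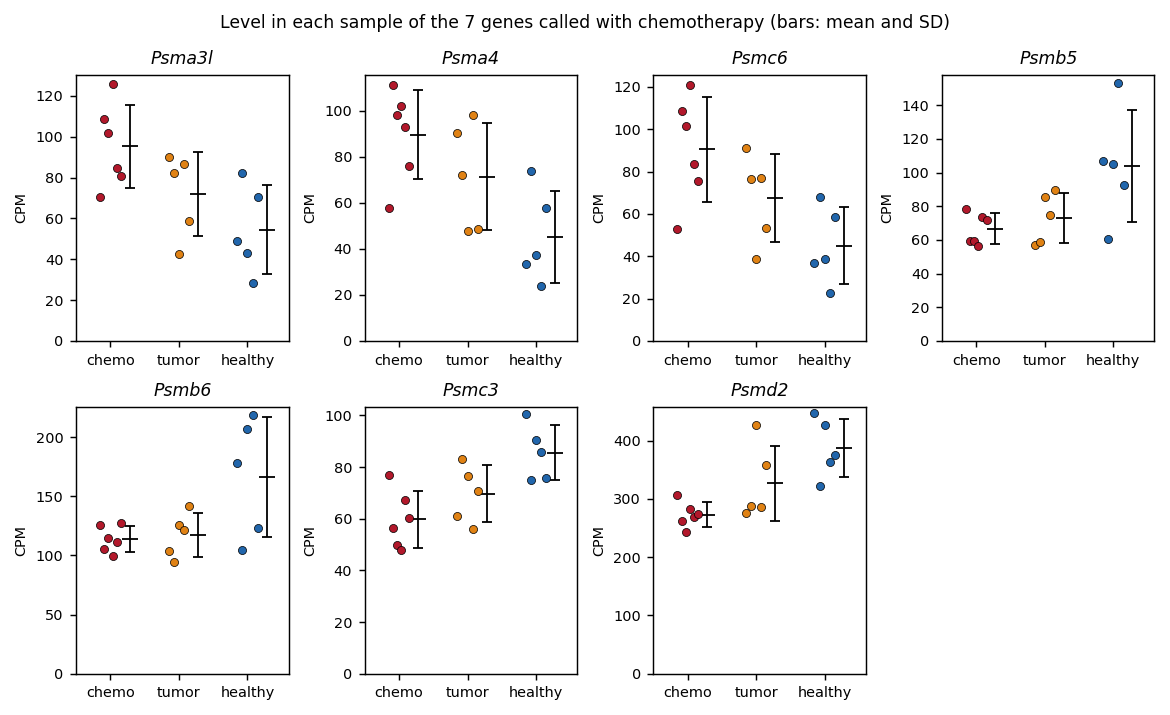
CPM (y axis) of the 7 proteasome genes called in chemotherapy against healthy muscle, with 1 point per sample for chemotherapy (6), tumor (5) and healthy (5) muscle and bars for each group's mean and SD. Psmd2 alone has no overlap between chemotherapy (244 to 307 CPM) and healthy (323 to 447 CPM) samples.

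Averaged over the 7 alpha genes, the log2 deviation from each gene's mean over all samples ran from -0.06 to 0.42 in the 6 chemotherapy samples, from -0.36 to 0.25 in the tumor samples and from -0.66 to 0.09 in the healthy samples. For the 7 beta genes the same average ran from -0.13 to 0.01 in chemotherapy, from -0.32 to 0.11 in tumor and from -0.17 to 0.46 in healthy samples. Healthy libraries 1, 3 and 4 had both the lowest healthy alpha values (-0.35, -0.20 and -0.66) and the highest healthy beta values (0.21, 0.46 and 0.44). Healthy library 2 had the reverse, at 0.09 for alpha and -0.17 for beta. The difference between rings therefore appeared between healthy libraries as well as between groups.

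**Figure D3:**
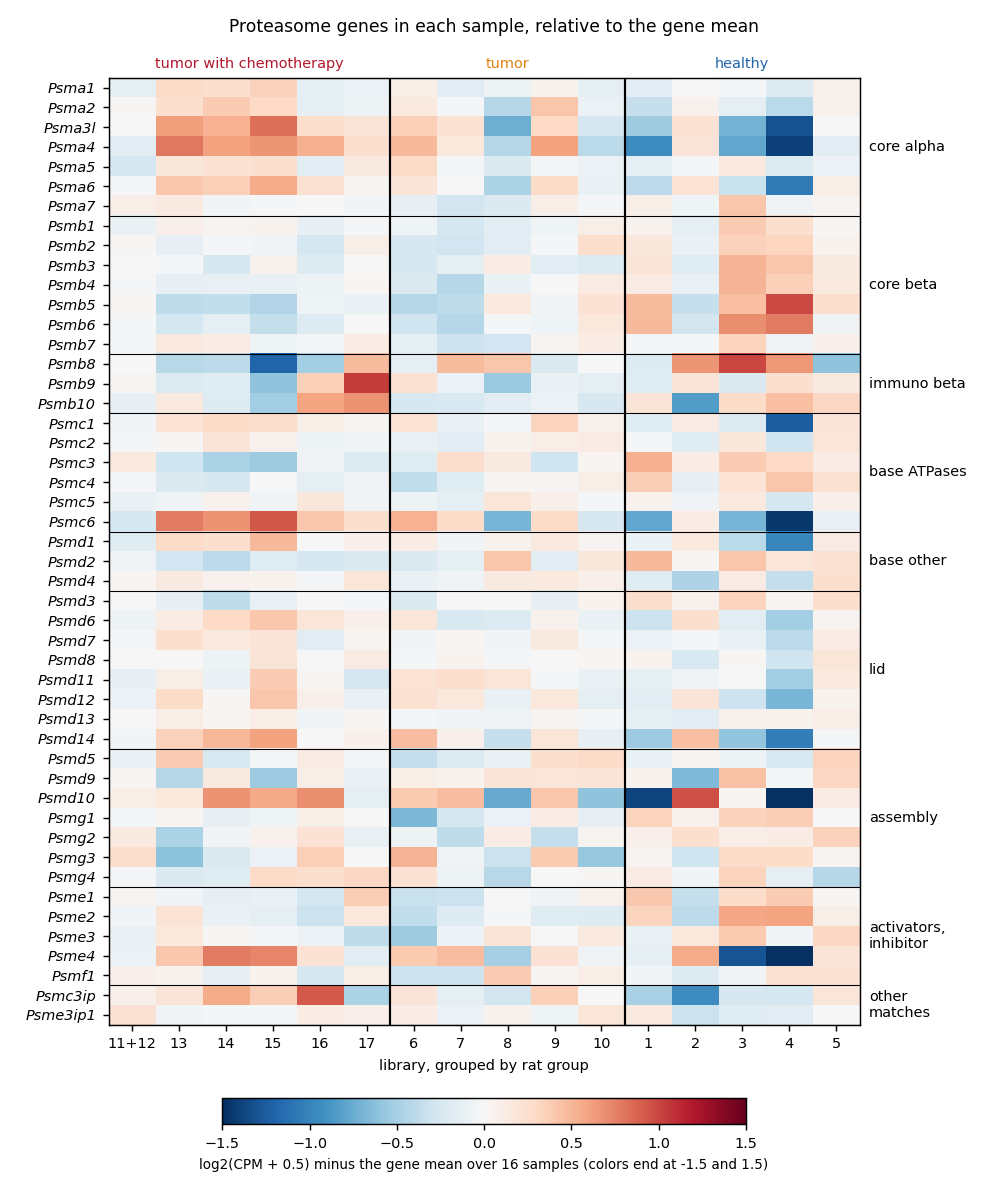
Log2 deviation of each proteasome gene (rows, grouped by role) from its mean over the 16 samples (columns: chemotherapy, tumor, healthy), from blue (low) to red (high), as log2(CPM + 0.5). Averaged over each ring, healthy libraries 1, 3 and 4 had low alpha and high beta values, with Psmc6 low beside Psma4 and Psma3l. Psma7 went the other way in healthy library 3 (0.42), and tumor library 8 was also low for alpha on average (-0.36).

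Base genes also moved in both directions. Of the 6 ATPases, which form the unfolding ring, Psmc6 was called higher and Psmc3 lower, and the fold changes in chemotherapy against healthy muscle were positive for 4 and negative for 2 (median 0.02). Psmc6 had 52.7, 92.5 and 121 CPM (lowest, median, highest) in chemotherapy, 90.9, 76.6, 38.8, 77.0 and 53.4 in tumor and 36.6, 68.1, 38.6, 22.8 and 58.4 in healthy libraries. Its pattern followed that of Psma4: healthy libraries 1, 3 and 4 lay below every chemotherapy sample and libraries 2 and 5 within their range. The fold change was 1.02 ± 0.27 (SE; edgeR adjusted p = 0.0308), and 0.51 without those 3 libraries.

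Psmc3 had 48.0, 58.3 and 77.0 CPM (lowest, median, highest) in chemotherapy, 61.1, 83.3, 76.5, 56.2 and 70.9 in tumor and 100.5, 75.0, 90.5, 85.8 and 75.9 in healthy libraries. Only the highest chemotherapy sample reached the lowest healthy values. The fold change was -0.51 ± 0.14 (SE; edgeR adjusted p = 0.0334), and -0.33 without healthy libraries 1, 3 and 4. The remaining ATPase genes had fold changes of 0.33 (Psmc1), 0.04 (Psmc2), -0.35 (Psmc4, adjusted p = 0.0582) and 0.00 (Psmc5).

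Psmd2, one of the large base scaffolds and a docking site for ubiquitin-like proteins, was 1 of 2 members whose chemotherapy and healthy samples did not overlap. Its levels were 244, 271 and 307 CPM (lowest, median, highest) in chemotherapy, 275, 288, 426, 286 and 359 in tumor and 447, 323, 427, 363 and 376 in healthy libraries. Every healthy library lay above every chemotherapy sample, and the tumor libraries spanned both ranges. It fell by 0.50 ± 0.13 on the log2 scale in chemotherapy against healthy muscle (edgeR adjusted p = 0.0303), and its fold change was -0.36 without healthy libraries 1, 3 and 4.

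Psmd1, the other large scaffold, had 171, 217 and 271 CPM (lowest, median, highest) in chemotherapy, 209.7, 188, 201, 215 and 199.8 in tumor and 181, 214, 146, 98.2 and 212 in healthy libraries. Only healthy libraries 3 and 4 lay outside the chemotherapy range. The fold change was 0.35 ± 0.17 (SE; edgeR adjusted p = 0.141), and that of Psmd4, a ubiquitin receptor, was 0.17. The scaffolds thus had fold changes of opposite sign, and only Psmd2 passed the test.

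None of the 8 lid genes was called, although 7 had positive fold changes in chemotherapy against healthy muscle (median 0.14, from -0.29 to 0.55). Psmd3, a structural lid subunit, was the exception with a negative sign: it had 65.6, 81.8 and 85.9 CPM (lowest, median, highest) in chemotherapy, 73.5, 86.1, 85.1, 78.4 and 88.6 in tumor and 103, 89.5, 108, 87.4 and 102 in healthy libraries. The chemotherapy and healthy values did not overlap, with a fold change of -0.29 ± 0.11 (SE; edgeR adjusted p = 0.0713). With Psmd2 it was 1 of 2 members (4.17% of 48) without overlap, where 4% of all genes tested showed none and 1.97% lay lower without overlap.

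Psmd14, the deubiquitinase of the lid, had 39.3, 47.3 and 62.0 CPM (lowest, median, highest) in chemotherapy, 56.2, 42.7, 31.9, 46.2 and 37.4 in tumor and 27.6, 55.7, 26.7, 19.6 and 39.9 in healthy libraries. Healthy libraries 1, 3 and 4 lay below every chemotherapy sample, as for Psma4 and Psmc6, and the fold change was 0.55 ± 0.22 (SE; edgeR adjusted p = 0.0872). The other 6 lid genes had fold changes between 0.04 (Psmd13) and 0.30 (Psmd6).

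The 7 assembly chaperones, which put the core and base together and then leave, had no call in chemotherapy against healthy muscle (3 positive and 4 negative, median -0.11). Psmg1, which pairs with Psmg2 in alpha-ring assembly, had 21.2, 22.9 and 24.6 CPM (lowest, median, highest) in chemotherapy, 14.3, 19.3, 21.7, 25.1 and 21.3 in tumor and 29.3, 24.2, 29.4, 30.1 and 23.2 in healthy libraries. Psmg2 had 7.56, 10.8 and 12.6 CPM in chemotherapy, 10.2, 8.10, 11.7, 8.26 and 11.1 in tumor and 11.3, 12.9, 11.6, 11.7 and 13.8 in healthy libraries. Both genes were lower on average in each tumor-bearing group than in healthy muscle, with overlap in every comparison. For chemotherapy against healthy muscle the fold changes were -0.26 ± 0.14 (SE; edgeR adjusted p = 0.188) for Psmg1 and -0.20 ± 0.16 (adjusted p = 0.380) for Psmg2. For tumor against healthy muscle they were -0.43 ± 0.14 for Psmg1 (adjusted p = 0.221) and -0.31 ± 0.17 for Psmg2 (adjusted p = 0.313). The largest fold change of the group, 0.76 ± 0.60 for the base chaperone Psmd10, came from 1 to 29 counts per sample.

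Immunoproteasome transcripts were not called in any comparison. Psmb8 was scarce, at 1 to 36 counts per sample: it had 0.312, 0.919 and 2.09 CPM (lowest, median, highest) in chemotherapy, 1.19, 2.10, 1.99, 1.11 and 1.38 in tumor and 1.13, 2.47, 3.25, 2.43 and 0.737 in healthy libraries. Psmb9 had 3.12, 4.74 and 10.8 CPM in chemotherapy, 5.94, 4.67, 3.23, 4.60 and 4.50 in tumor and 4.34, 5.77, 4.20, 5.94 and 5.53 in healthy libraries. Psmb10 had 8.10, 11.9 and 19.0 CPM in chemotherapy, 9.84, 9.91, 10.4, 10.96 and 9.86 in tumor and 13.4, 6.32, 14.2, 16.1 and 14.6 in healthy libraries. The highest Psmb9 and Psmb10 values came from chemotherapy library 17, and the groups overlapped for all 3 genes.

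In chemotherapy against healthy muscle the log2 fold changes were -0.84 ± 0.42 for Psmb8 (SE; edgeR adjusted p = 0.158), 0.15 ± 0.27 for Psmb9 (adjusted p = 0.702) and -0.01 ± 0.22 for Psmb10 (adjusted p = 0.987). In tumor against healthy muscle they were -0.35 ± 0.42 for Psmb8 (adjusted p = 0.653), -0.18 ± 0.28 for Psmb9 (adjusted p = 0.739) and -0.37 ± 0.24 for Psmb10 (adjusted p = 0.379). At 1 to 36 counts, only large changes of Psmb8 were detectable. The summed level of 12 leukocyte markers ranged from 186 to 544 CPM in chemotherapy, 178 to 327 in tumor and 210 to 404 in healthy muscle; 8 of the 12 were tested and none was called. In chemotherapy against healthy muscle, 2 of the 8 had positive and 6 had negative fold changes (median -0.26). The B cell marker Ms4a1, not among the 8, was at 0 in every tumor and healthy library. It averaged 1.49 ± 3.65 CPM in chemotherapy (SD, n = 6), a spread that arises when a single sample holds nearly all the counts. That mean therefore does not describe the chemotherapy group as a whole. The part of leukocytes in these values was not tested.

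The immunoproteasome subunit was also set against the constitutive subunit it replaces, as the log2 ratio of their counts within a sample. Psmb8 over Psmb5 averaged -5.97 ± 0.63 in chemotherapy, -5.51 ± 0.48 in tumor and -5.76 ± 0.97 in healthy muscle (SD, n = 6, 5 and 5). Psmb9 over Psmb6 averaged -4.41 ± 0.51 in chemotherapy, -4.67 ± 0.46 in tumor and -4.95 ± 0.61 in healthy muscle. Psmb10 over Psmb7 averaged -3.45 ± 0.46 in chemotherapy, -3.60 ± 0.18 in tumor and -3.51 ± 0.52 in healthy muscle. In each group the constitutive gene had many more counts than its immunoproteasome counterpart. The largest difference between groups was 0.54 for Psmb9 over Psmb6 in chemotherapy against healthy muscle, higher in chemotherapy (two-sided exact permutation p = 0.143), and no ratio differed detectably between groups in the 9 tests (adjusted p from 0.839 to 0.872). The smallest p these tests can give is 0.00216 for 6 against 5 samples and 0.00794 for 5 against 5.

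**Figure D4:**
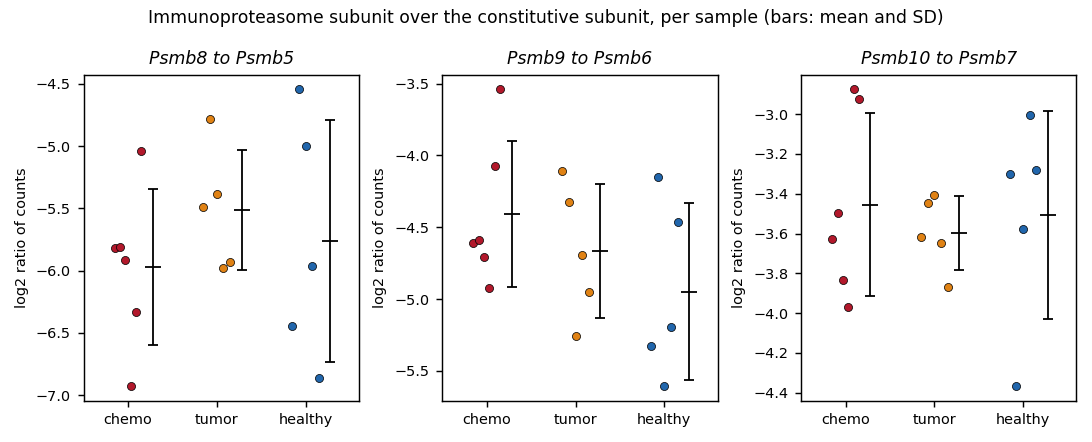
Log2 ratio of immunoproteasome to constitutive subunit counts (y axis, 0.5 added to each count) for Psmb8 over Psmb5, Psmb9 over Psmb6 and Psmb10 over Psmb7, with 1 point per sample and bars for each group's mean and SD. The chemotherapy, tumor and healthy samples overlap in all 3 ratios.

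Of the 5 activators and inhibitors none was called, and 4 of 5 fold changes were negative in chemotherapy against healthy muscle (median -0.18) and in tumor against healthy muscle (median -0.20). Psme1 and Psme2 encode the interferon-inducible activator that opens the gate without ATP. Psme1 had 63.7, 72.7 and 99.1 CPM (lowest, median, highest) in chemotherapy, 60.2, 60.8, 76.6, 73.5 and 79.9 in tumor and 101, 60.1, 92.3, 99.3 and 77.8 in healthy libraries. Psme2 had 28.5, 34.0 and 41.4 CPM in chemotherapy, 27.7, 31.3, 35.2, 31.4 and 31.3 in tumor and 45.3, 27.2, 53.8, 54.3 and 38.1 in healthy libraries. For both genes healthy library 2 had the lowest healthy value and lay below the lowest tumor value, while libraries 1, 3 and 4 were the highest. Psme2 had fold changes of -0.33 ± 0.16 in chemotherapy (SE; edgeR adjusted p = 0.138) and -0.49 ± 0.17 in tumor (adjusted p = 0.221) against healthy muscle. Those of Psme1 were -0.18 ± 0.15 in chemotherapy (adjusted p = 0.394) and -0.30 ± 0.16 in tumor (adjusted p = 0.307) against healthy muscle.

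Psme4, a large activator that caps the core alone and is known from chromatin and spermatogenesis, varied more than the others. It had 284, 394 and 544 CPM (lowest, median, highest) in chemotherapy, 416, 436, 225, 369 and 306 in tumor and 287, 467, 129, 97.6 and 364 in healthy libraries. Healthy libraries 3 and 4 were the lowest of all 16 samples and library 2 lay near the top, so the healthy group spanned most of the range. The fold change was 0.60 ± 0.32 (SE; edgeR adjusted p = 0.182) in chemotherapy against healthy muscle.

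Psme3, the nuclear activator, had 10.1, 12.7 and 14.8 CPM (lowest, median, highest) in chemotherapy, 8.99, 12.4, 15.3, 13.2 and 14.7 in tumor and 12.3, 14.8, 17.6, 12.9 and 16.6 in healthy libraries. Psmf1, an inhibitor of the core, had 22.6, 27.8 and 28.7 CPM in chemotherapy, 21.5, 21.5, 35.1, 27.3 and 28.7 in tumor and 26.1, 23.3, 26.1, 31.5 and 31.2 in healthy libraries. The 3 groups overlapped for both, with fold changes of -0.23 ± 0.16 (SE; edgeR adjusted p = 0.302) for Psme3 and -0.06 ± 0.14 (adjusted p = 0.786) for Psmf1 in chemotherapy against healthy muscle.

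Of the 2 members that are not subunits, Psmc3ip had 3.23, 5.84 and 9.36 CPM (lowest, median, highest) in chemotherapy, 5.43, 4.19, 3.80, 6.19 and 4.67 in tumor and 3.21, 2.20, 3.92, 3.85 and 5.40 in healthy libraries. Psme3ip1 had 26.9, 28.2 and 32.2 CPM in chemotherapy, 29.9, 26.0, 28.8, 26.4 and 31.5 in tumor and 30.6, 22.0, 24.4, 24.7 and 27.7 in healthy libraries. Both ranges overlapped, and neither gene was called in chemotherapy against healthy muscle (edgeR adjusted p = 0.0821 for Psmc3ip and 0.352 for Psme3ip1).

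The second question was whether a tumor without chemotherapy altered these transcripts. Tumor against healthy muscle gave no called member and no called gene at all (0% of 11856; smallest adjusted p among members 0.221 by edgeR). At an unadjusted p below 0.05 there were 10 members, 2 higher and 8 lower, and 2134 genes in all (18%), 8.88% higher and 9.12% lower. DESeq2 called 0 members and 40 genes, and limma-voom called 0 members. Fold changes were positive for 23 members and negative for 25, with a median of -0.02, and no member had separate groups, against 0.995% of all genes.

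By role, the alpha ring had 6 positive and 1 negative fold changes in tumor against healthy muscle (median 0.17) and the beta ring 0 and 7 (median -0.34). This comparison shares its healthy samples with the previous one, so the like signs are not independent. The values were 0.67 ± 0.27 for Psma4 (SE; edgeR adjusted p = 0.247), 0.59 ± 0.28 for Psmc6 (adjusted p = 0.275), -0.51 ± 0.20 for Psmb5 (adjusted p = 0.242), -0.51 ± 0.18 for Psmb6 (adjusted p = 0.235) and -0.24 ± 0.14 for Psmd2 (adjusted p = 0.340). Without healthy libraries 1, 3 and 4 the signs were 2 positive to 5 negative for alpha and 1 to 6 for beta. Without healthy library 2, 4 of 48 members were called lower, among them Psmb5, Psmb6 and Psme2, beside 504 of 11995 genes (245 higher, 259 lower).

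The third question was whether chemotherapy altered the transcripts among tumor-bearing rats. Chemotherapy against tumor muscle gave no called member and no called gene (0% of 11856; smallest adjusted p among members 0.778 by edgeR). No member had an unadjusted p below 0.05, where 685 genes (5.78%) did. DESeq2 called 0 members and 9 genes, and limma-voom called 0 members. Fold changes were positive for 35 members (72.9%) and negative for 13 (median 0.06). The positive ones included all 7 tested alpha genes (median 0.14) and 5 of 7 beta genes (median 0.05). Over all genes tested 50.6% were positive, with a median of 0.004. The median size of the change, regardless of sign, was 0.11 for the members and 0.18 for all genes. The values were 0.42 ± 0.27 for Psmc6 (SE), 0.40 ± 0.24 for Psma3l, 0.33 ± 0.26 for Psma4, -0.13 ± 0.19 for Psmb5 and -0.26 ± 0.13 for Psmd2. No member's groups were separate, against 0.481% of all genes.

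Of 27 symbols listed for genes that work with the proteasome, 25 had an entry and 24 were tested. In chemotherapy against healthy muscle 2 rose, 4 fell and 18 were not called (median -0.01), where 13.7% of all genes were called. These 6 calls too were lost in each setting that left no gene called; the log2 fold change of Uchl5 was 0.62 without healthy libraries 1, 3 and 4 and 0.22 with 1 surrogate variable, and the call of Uba6 was lost in 18 of 29 settings. Uchl5, a deubiquitinase of the regulatory particle, averaged 14.6 ± 4.84 CPM in chemotherapy (SD, n = 6) and 5.69 ± 3.53 in healthy muscle (n = 5), a fold change of 1.41 ± 0.38 (SE; edgeR adjusted p = 0.0311). Uba6, the second ubiquitin-activating enzyme, averaged 18.7 ± 3.82 CPM in chemotherapy and 11.1 ± 4.86 in healthy muscle (fold change 0.79, adjusted p = 0.0488). The main ubiquitin-activating enzyme Uba1 went the other way, at 139.7 ± 10.1 CPM in chemotherapy against 210.2 ± 31.9 in healthy muscle (fold change -0.59, adjusted p = 0.0290), with no overlap between groups.

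The shuttle factor Ubqln4 averaged 82.4 ± 8.52 CPM in chemotherapy and 123 ± 16.9 in healthy muscle (fold change -0.58, edgeR adjusted p = 0.0261). Nploc4, a cofactor of the unfoldase Vcp, averaged 62.6 ± 8.30 CPM in chemotherapy and 97.6 ± 10.8 in healthy muscle (fold change -0.64, adjusted p = 0.0271). Neither gene overlapped between these groups. Ubqln2, a further shuttle factor, averaged 8.46 ± 2.54 CPM in chemotherapy and 16.1 ± 4.58 in healthy muscle (fold change -0.91, adjusted p = 0.0308). Nfe2l1, the factor that drives proteasome genes when proteasome activity is short, is named here after its values were seen: it averaged 383 ± 50.3 CPM in chemotherapy, 372 ± 61.7 in tumor and 274 ± 103 in healthy muscle, with a fold change of 0.49 ± 0.20 in chemotherapy against healthy muscle (adjusted p = 0.0926). None of the 24 was called in the comparisons involving tumor muscle.

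Of 10 genes of class I antigen presentation and interferon response, 9 were tested. In chemotherapy against healthy muscle 4 had positive and 5 had negative fold changes (median -0.03). Of the 9, 1 was called higher, where 13.7% of all genes were called in either direction. B2m, the light chain of class I molecules, averaged 226 ± 24.8 CPM in chemotherapy (SD, n = 6) and 155 ± 41.9 in healthy muscle (n = 5), a fold change of 0.55 ± 0.16 (SE; edgeR adjusted p = 0.0346). The B2m call was lost in 12 of 29 settings, with a fold change of 0.22 without healthy libraries 1, 3 and 4 and 0.11 among the VM libraries (adjusted p = 0.9001 and 0.890). The entry of the peptide transporter gene Tap2 held 0 counts in every library. That of Tap1 averaged 7.05 CPM in chemotherapy, 8.25 in tumor and 8.42 in healthy muscle. Why the Tap2 entry was empty was not tested. The 8 other tested genes were not called in any comparison, nor was B2m in those involving tumor muscle.

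For 19 members, Psma3l, Psmb6, Psmc6 and Psmd14 among them, RefSeq lists at least 1 pseudogene named after the gene, and reads could have been split between copies. Their values carry that uncertainty.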

How the data were processed

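RNA of 17 libraries of rat gastrocnemius muscle was measured by RNA-seq. The deposited values are raw counts per gene, not normalized by the authors; whether reads or read pairs were counted is not stated. Per the submitters' processing notes, reads were handled with TopHat2 2.0.10, Bowtie2, Trim Galore 0.4.1, CASAVA 1.9 and FastQC 0.11.4; which counting program, strand setting, build and annotation were used is not given in the sources used here. The 388 entries with no gene name were left out. Libraries 11 and 12, the most alike of all pairs, were summed.

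All 16 samples entered 1 edgeR 4.0.16 quasi-likelihood model (R 4.3.3, TMM scaling, filterByExpr with a minimum count of 10, robust fit, 13 residual degrees of freedom), checked on simulated data. Simulated samples held no subgroups of libraries, so that check does not cover a split such as that of healthy libraries 1, 3 and 4. Values of p were adjusted over 11856 genes by Benjamini and Hochberg's method. Ratios were tested by two-sided exact permutation over samples, adjusted over 9 tests. Alternatives included DESeq2 1.42.0, limma-voom 3.58.1 and a surrogate variable (sva 3.50.0). The members and gene lists were chosen with earlier results of these data known. Values for each tumor and healthy library, and the lowest, median and highest of the 6 chemotherapy samples, are given for the immunoproteasome, activator and inhibitor genes and, in each other role, for the 2 members with the smallest p. In the partner and class I lists, called genes are named.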

Additional observations from a re-analysis of the deposited data

Results flagged for a closer look

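In 75 groups of 5 or 6 samples, 2 held a sample set apart from the rest of its group by Dixon's criterion, where chance gives about 1 in 20. Psmb10 had 6.32 CPM in healthy library 2, the lowest of that group, against 13.4 to 16.1 CPM in the other 4 healthy libraries. Psmd3 had 65.6 CPM in chemotherapy library 14, against 78.6 to 85.9 CPM in the other 5 chemotherapy samples.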

How the results depend on the processing

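In chemotherapy against healthy muscle, 7 of 48 members were called in the main analysis, beside 1625 of 11856 genes. The count was 4 of 48 with scaling by total counts, beside 2017 of 11856 genes. With no filter on low counts it was 4 of 50, beside 884 of 19201 genes. It was 0 when the model held the suffix or 1 surrogate variable, among VM libraries only and without healthy libraries 1, 3 and 4, settings in which no gene of the table was called. Leaving out 1 library gave 0 to 16 members, beside 0 to 3799 genes. In tumor against healthy muscle the count was 0, and 0 to 4 when 1 library was left out, beside 0 to 504 genes. In chemotherapy against tumor muscle it was 0 in all 29 settings. The fold change of Psmb6 turned to 0.0010 without healthy libraries 1, 3 and 4. The Psmb8 to Psmb5 ratio turned to 0.85 in chemotherapy against healthy muscle among VM libraries, with -0.49 to 0.092 when 1 sample was left out, and -0.026 to 0.55 in tumor against healthy muscle. The Psmb9 to Psmb6 ratio turned to -0.10 in chemotherapy and -0.36 in tumor against healthy muscle without healthy libraries 1, 3 and 4, and to -0.20 in tumor against healthy among VM libraries. The Psmb10 to Psmb7 ratio turned to -0.14 in chemotherapy against healthy among VM libraries (-0.16 to 0.18 when 1 sample was left out) and to 0.22 in tumor against healthy without healthy libraries 1, 3 and 4 (-0.31 to 0.033). The causes were not tested. Only healthy library 5 among healthy samples, and the summed libraries 11 and 12 among chemotherapy samples, carry the suffix less common in their group, so the VM values against healthy muscle rest on 1 healthy sample, assumed to vary like the others. No paired analysis was possible because the groups share no replicate numbers.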
